A study of Mus musculus with 6 samples.

Results

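The integrin and laminin genes of the mouse pancreas were followed from saline to cerulein treatment. They were taken by symbol, as the numbered or lettered integrin alpha chains (18 genes), the integrin beta chains (8 genes) and the laminin alpha, beta and gamma chains (10 genes). The genes described are 36 of the 36333 in the count table. The samples were pancreas of wild-type mice, 3 given saline and 3 given cerulein, both by intraperitoneal injection. Cerulein, a cholecystokinin analogue that overstimulates acinar cells, was injected 10 times at a dose of 200 µg/kg/h and a volume of 200 µl, and RNA was taken when the course ended. The labels give no strain, age or number of saline injections, and nothing says whether each sample is a separate animal, so p-values measure the spread between these samples.

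Integrins are paired receptors, each of 1 alpha and 1 beta chain, that bind cells to extracellular matrix or to other cells and link to the actin cytoskeleton inside. Laminins are three-chain proteins of the basement membrane, the sheet under epithelia and around vessels, muscle and fat cells. Epithelial cells anchor on laminin chiefly through the alpha3, alpha6 and beta4 chains, the last being a core part of hemidesmosomes, whereas leukocytes use the beta2 and beta7 chains to stick to vessel walls and to other cells.

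Total counts per library lay between 5335117 and 7610775. Levels are given as CPM, the count divided by the library size after TMM scaling, and log2 fold changes are cerulein over saline. Acinar markers summed to 208100 to 431900 CPM in saline and 107200 to 123800 CPM in cerulein. Acinar transcripts were thus abundant in every library. All 7 acinar markers fell and all 7 epithelial markers (Itga2 among them) rose, where 27.1% of all genes tested fell and 28.7% rose. The epithelial marker sum was 445 to 598 CPM in saline and 11670 to 13060 CPM in cerulein. Most of the cerulein sum was Krt8 and Krt18, with means of 5945 and 5151 CPM. Epcam had means of 26.55 CPM in saline and 69.27 CPM in cerulein. Saline replicate 1 stood apart, with 535 CPM of leukocyte markers, where the other saline libraries had 153 and 314 CPM. Its acinar marker sum was 208100 CPM, where theirs were 425900 and 431900 CPM, so results that rest on it are given without it too. In bulk tissue, a change in the number of cells of a type and a change in RNA per cell cannot be told apart.

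Epithelial integrins rose after cerulein, and beta1, the commonest partner chain, rose with them. Of the 6 leukocyte integrins tested, 1 was called, and that call was lost in 7 of 14 alternatives. Laminin chains split, with Lamc1, Lamb3 and Lama5 higher and Lama2 and Lamc3 lower. Of the 36 genes, 29 passed the low-count filter, and edgeR at an adjusted p under 0.05 called 14 higher and 2 lower. Among all 12441 genes tested 55.8% were called, 28.7% higher and 27.1% lower. The cerulein libraries lay wholly above the saline libraries for 15 tested integrin and laminin genes and wholly below for 2, where the shares over all genes were 32.4% and 30.6%. Counts over tested genes leave out 7 low genes. For 7 of the tested genes, among them Itga2, Itgb6 and Itgax, all 3 cerulein libraries but fewer than 3 saline libraries reached the cutoff, and Itga2 reached it in no saline library.

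**Figure D1:**
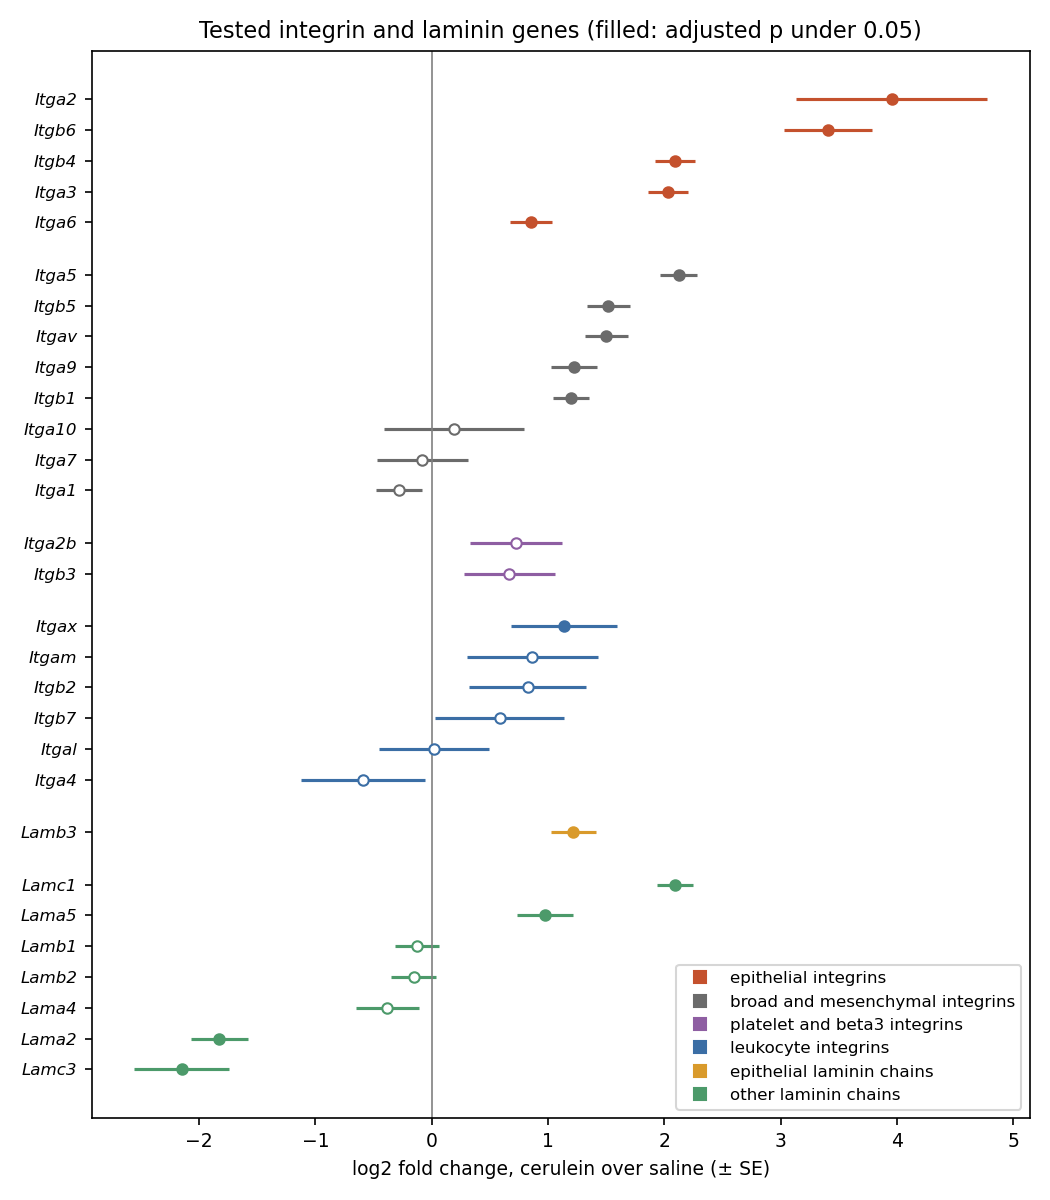
Log2 fold change of cerulein over saline with its SE (x axis) for the 29 tested genes, grouped and coloured by role; filled points passed an adjusted p under 0.05. The 5 epithelial integrins lie between 0.85 and 3.96, the 6 tested leukocyte integrins between -0.59 and 1.14, and the laminin chains between -2.15 and 2.09.

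All 5 epithelial integrins rose, where 28.7% of all genes tested were called higher. Their median log2 fold change was 2.09, against -0.00091 over all genes tested. Itga2 and Itgb6 passed the filter through their cerulein libraries, where they are high, so this count and median are a description. The epithelial markers, which include Itga2 itself, rose beside them, with none at 0 in cerulein, and their part in these rises was not tested. Itga2 (chromosome 13, 114833081 to 114932100, GRCm38) encodes the alpha2 chain, which pairs with beta1 to bind collagen and laminin. It had 2, 0 and 0 reads in saline replicates 1, 2 and 3 and 28, 12 and 15 reads in cerulein replicates 1, 2 and 3. The groups did not overlap, but the saline level rests on 2 reads. The ratio of summed counts, scaled for library size, was 17.3 with an exact 95% interval of 4.58 to 147 for counting error only (log2 fold change 3.96 ± 0.82 SE, edgeR adjusted p = 0.00113). Both saline reads were in replicate 1. Without it saline was at 0, and cerulein was at least 6.13-fold higher, taking 3 counts over the saline group as the floor. Itga2 was dropped by the filter without cerulein replicate 1.

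Itgb6 (chromosome 2, 60598292 to 60722643) encodes beta6, an epithelial chain that pairs with alphav and activates latent TGF-beta. Its CPM were 0.677, 1.35 and 2.31 in saline and 14.4, 17.2 and 10.6 in cerulein. Every cerulein library was higher than every saline library, and the log2 fold change was 3.40 ± 0.38 (SE, adjusted p = 7.23e-06, edgeR). Its partner Itgav, which many cell types express, stood at 18.4, 11.9 and 14.1 CPM in saline and 47.0, 41.0 and 39.9 CPM in cerulein, a log2 fold change of 1.50 ± 0.19 (SE; edgeR adjusted p = 2.01e-05). Itgb5, another partner of alphav, rose by 1.52 ± 0.19 on the log2 scale, while Itgb8, which also pairs with alphav, had 10 reads in saline and 3 in cerulein and was not tested.

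Among the epithelial integrins, Itgb4, Itga6 and Itga3 encode the chains through which epithelial cells chiefly anchor on laminin. Itgb4 (chromosome 11, 115974709 to 116008412) stood at 45.8, 62.0 and 46.5 CPM in saline and 213, 218 and 227 CPM in cerulein, a log2 fold change of 2.09 ± 0.17 (SE; edgeR adjusted p = 5.52e-07). Of its exon length, 21.3% lies under other genes of the table, so reads may be missing from both groups. The alpha chain that pairs with it, Itga6, stood at 129, 102 and 99.2 CPM in saline and 180, 181 and 237 CPM in cerulein, a log2 fold change of 0.85 ± 0.18 (SE; edgeR adjusted p = 0.00126). Both pairs of groups were apart. Itga3, which forms the alpha3beta1 laminin receptor, went from 30.2, 26.4 and 20.3 to 113, 105 and 99.5 CPM, a log2 fold change of 2.03 ± 0.17 (SE; edgeR adjusted p = 6.10e-07). Per kilobase of exon, Itga6 was above Itgb4 in both groups, at 25.3 ± 3.74 against 8.06 ± 1.43 CPM per kb in saline and 45.7 ± 7.48 against 34.4 ± 1.13 CPM per kb in cerulein (mean ± SD, n = 3).

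**Figure D2:**
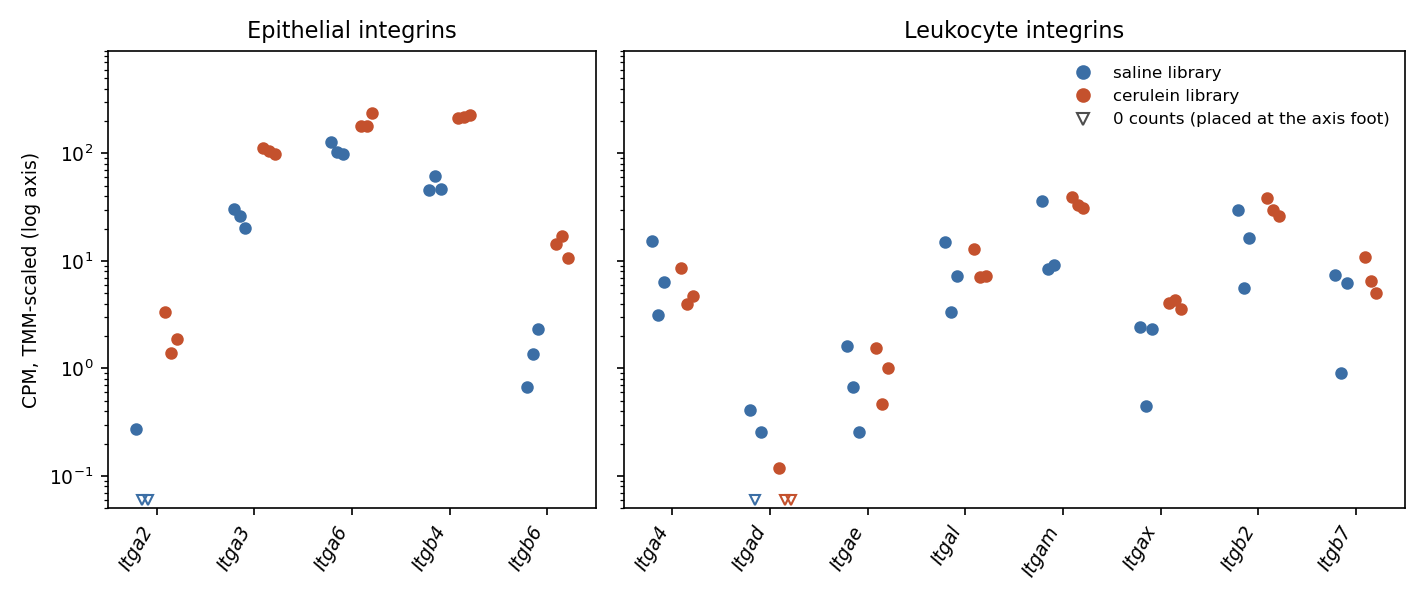
CPM in each library on a log axis for the 5 epithelial integrins (left) and the 8 leukocyte integrins (right); points are libraries, and open triangles at the foot are libraries with 0 counts. The groups are apart for all 5 epithelial genes, whereas among the leukocyte genes only Itgax has all cerulein libraries (3.54 to 4.33 CPM) above all saline libraries (0.451 to 2.44 CPM).

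Of 8 leukocyte integrins, 6 were tested in the fit of all 6 libraries. Of these, 1 was called higher and none lower, where 28.7% of all genes rose and 27.1% fell. The median log2 fold change of the 6 was 0.70, against -0.00091 over all genes. Without a count filter the median over all 8 was 0.39. Itgax and Itgb7 reached the cutoff in all 3 cerulein but only 2 saline libraries, so this count and median are a description. Itgam (chromosome 7, 128062640 to 128118491) encodes alphaM, which with beta2 forms the Mac-1 receptor of neutrophils and macrophages. Its CPM were 36.4, 8.33 and 9.26 in saline and 39.3, 33.1 and 31.1 in cerulein, so saline replicate 1 lay inside the cerulein range (log2 fold change 0.86 ± 0.56 SE, edgeR adjusted p = 0.241). Itgb2, the shared beta chain of alphaL, alphaM, alphaX and alphaD, stood at 29.5, 5.63 and 16.5 CPM in saline and 38.7, 29.6 and 26.1 CPM in cerulein, again with saline replicate 1 among the cerulein values (0.82 ± 0.50, adjusted p = 0.212). Without saline replicate 1, Itgam was called at a log2 fold change of 1.94 (adjusted p = 3.24e-07, edgeR) and Itgb2 at 1.51 (adjusted p = 0.0123), and Itgax at 1.53 (adjusted p = 0.0218), so 3 of 6 were called. The median of the 6 was then 1.31, against 0.13 over the 7 genes tested without saline replicate 2 and 1.21 with library size alone.

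Itgax, the alphaX chain of dendritic cells and some macrophages, was the member called in the fit of all libraries, at 2.44, 0.451 and 2.31 CPM in saline and 4.02, 4.33 and 3.54 CPM in cerulein (log2 fold change 1.14 ± 0.46 SE, edgeR adjusted p = 0.0490). The call was lost in 7 of 14 alternatives. These were the fits without saline replicate 2 (adjusted p = 0.122) or 3 (0.0646), without cerulein replicate 1 (0.0944), 2 (0.123) or 3 (0.0809), with upper-quartile factors (0.106) and in DESeq2 (0.0663). Over all 14 the adjusted p lay between 0.0186 and 0.123. Itgb7, the beta chain of gut-homing lymphocytes, had 7.45, 0.901 and 6.17 CPM in saline and 10.9, 6.55 and 5.05 CPM in cerulein (log2 fold change 0.58 ± 0.55 SE). Itgal, the alphaL chain of LFA-1, and Itga4, the partner of beta1 or beta7 in binding VCAM-1, had log2 fold changes of 0.02 ± 0.48 and -0.59 ± 0.53, with groups that overlapped. Without saline replicate 1 these were 0.77 for Itgal (edgeR adjusted p = 0.0981) and 0.26 for Itga4 (adjusted p = 0.619), so Itga4 changed sign. Itgb7 was then at 1.11 (adjusted p = 0.193). Itgad, of certain macrophages, had 5 reads in all and Itgae, of intraepithelial lymphocytes, had 41, and neither was tested.

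Summed over their genes, epithelial integrins went from 206, 192 and 168 CPM in saline to between 523 and 576 CPM in cerulein, with no overlap. Leukocyte integrins summed to 108, 22.5 and 48.3 CPM in saline and 116, 85.1 and 78.7 CPM in cerulein, and saline replicate 1 fell within the cerulein range. Of 15 leukocyte markers, none at 0 in all libraries, 14 were tested, 3 were higher, none were lower and 11 were not called. Over all genes, 28.7% were higher and 27.1% lower. The log2 fold changes of these markers ran from -1.19 to 1.13, and their sum was 153 to 535 CPM in saline and 454 to 564 CPM in cerulein. The part of leukocyte number in the leukocyte integrins was not tested. Set against the leukocyte markers, the sum of leukocyte integrins was 20.2%, 14.7% and 15.4% of the marker sum in saline. In cerulein it was 20.6%, 17.6% and 17.3%, and only saline replicate 1 lay within that range. Without saline replicate 1, this share, the leukocyte integrin sum and the marker sum were each lower in saline, with no overlap. The ratio of epithelial to leukocyte integrin CPM was 1.90, 8.52 and 3.48 in saline and 4.51, 6.15 and 7.32 in cerulein. It overlapped with or without saline replicate 1. The difference in response between the integrin groups was not tested, since the groups were chosen with earlier results known.

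**Figure D3:**
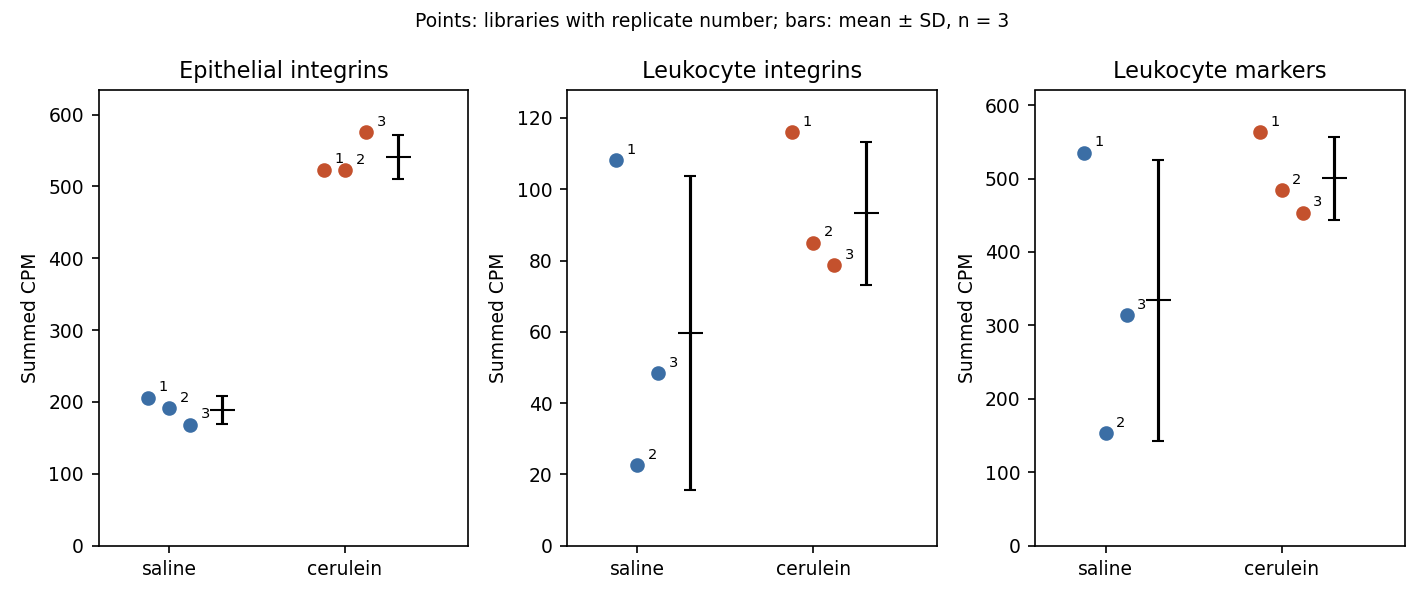
Summed CPM (y axis, from 0) of the epithelial integrins, the leukocyte integrins and 15 leukocyte markers in each library, numbered by replicate; black bars are mean ± SD, n = 3. Saline replicate 1 is the highest saline library in the leukocyte panels, at 108 and 535 CPM, and reaches the cerulein values there but not in the epithelial panel, where the saline libraries sit at or below 206 CPM.

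Promoter windows from RefSeq (GRCm38.p6, 250 bases before to 50 after an annotated start) are shown for the epithelial integrins with the largest log2 fold changes, Itga2 and Itgb6, and for the leukocyte chains Itgax and Itgam. Capitals mark matches on either strand to TGANTCA, the AP-1 motif, or to GAGGAA, the core of the PU.1 site of myeloid cells. The motifs do not overlap one another in these windows. Itga2 lies at chr13:114932051-114932350 on the minus strand and Itgb6 at chr2:60722554-60722853 on the minus strand. Itgax lies at chr7:128129300-128129599 and Itgam at chr7:128062390-128062689, both on the plus strand.
Itga2: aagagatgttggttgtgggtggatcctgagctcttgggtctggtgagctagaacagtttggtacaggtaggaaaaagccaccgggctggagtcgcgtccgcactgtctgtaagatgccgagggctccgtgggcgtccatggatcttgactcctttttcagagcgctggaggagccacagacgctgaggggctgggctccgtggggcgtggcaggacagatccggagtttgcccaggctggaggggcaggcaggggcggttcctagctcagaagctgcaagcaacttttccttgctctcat
Itgb6: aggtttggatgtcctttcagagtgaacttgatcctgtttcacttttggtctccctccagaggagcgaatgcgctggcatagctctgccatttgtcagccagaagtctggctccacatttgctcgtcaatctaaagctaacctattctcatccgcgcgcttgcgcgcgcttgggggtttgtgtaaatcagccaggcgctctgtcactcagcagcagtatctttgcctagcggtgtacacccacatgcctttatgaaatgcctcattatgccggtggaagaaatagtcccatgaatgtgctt
Itgax: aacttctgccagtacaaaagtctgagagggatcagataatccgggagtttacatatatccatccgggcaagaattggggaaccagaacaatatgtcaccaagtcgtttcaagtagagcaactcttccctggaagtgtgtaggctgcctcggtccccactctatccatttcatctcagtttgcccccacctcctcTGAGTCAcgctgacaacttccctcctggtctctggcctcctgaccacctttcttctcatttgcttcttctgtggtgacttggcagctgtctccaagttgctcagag
Itgam: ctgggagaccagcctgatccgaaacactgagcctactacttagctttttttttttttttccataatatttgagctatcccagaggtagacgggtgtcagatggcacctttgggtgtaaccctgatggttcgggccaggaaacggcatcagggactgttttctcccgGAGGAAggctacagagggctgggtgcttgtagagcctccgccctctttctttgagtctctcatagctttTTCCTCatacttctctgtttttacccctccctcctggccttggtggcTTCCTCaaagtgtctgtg
The Itga2 and Itgb6 windows held neither motif, Itgax held 1 AP-1 match and Itgam held 3 PU.1 core matches. A second annotated start of Itgb6 held 1 PU.1 core match, and 1 of the 2 windows of Itga3 held both motifs. Of the 36 genes, 23 had a window, and 3 of their 26 windows held the AP-1 motif and 14 the PU.1 core. Among all 32851 windows the shares were 7.81% and 28.3%. A match describes the letters and is not evidence of binding.

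Among integrins of many cell types, 5 of 8 tested genes rose and none fell, where 28.7% of all genes rose and 27.1% fell. Itgb1, the beta chain with the most alpha partners, stood at 118, 124 and 120 CPM in saline and 269, 285 and 277 CPM in cerulein, a log2 fold change of 1.20 ± 0.16 (SE; edgeR adjusted p = 2.62e-05). The spread within each group was small beside that difference. Itga5, the fibronectin receptor chain, went from 14.0, 13.5 and 14.1 to 59.2, 66.0 and 56.5 CPM, a log2 fold change of 2.12 ± 0.16 (SE; edgeR adjusted p = 2.19e-07). Itga9, a receptor chain for tenascin and osteopontin, rose by 1.22 ± 0.20 on the log2 scale. The collagen receptor chain Itga1 had a log2 fold change of -0.28 ± 0.20, Itga7, the laminin receptor chain of muscle, -0.08 ± 0.39, and Itga10, of cartilage, 0.19 ± 0.60. None of these passed, and their groups overlapped. Itga8 and Itga11, of mesenchymal cells, had 16 and 26 reads in all and were not tested.

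The platelet chains Itga2b and Itgb3, which form the fibrinogen receptor (beta3 also pairs with alphav in other cells), did not pass. Itga2b stood at 2.84, 1.13 and 2.57 CPM in saline and 3.91, 3.16 and 4.04 CPM in cerulein (log2 fold change 0.72 ± 0.40 SE, edgeR adjusted p = 0.137), with groups apart, and Itgb3 had 0.67 ± 0.39 (adjusted p = 0.168). With library size alone Itga2b was called, at 1.26 (adjusted p = 0.0437), and without saline replicate 1 Itgb3 was, at 1.14 (adjusted p = 0.0392). Of 5 platelet markers 2 were tested and 1 rose. The markers summed to 5.14 to 9.24 CPM in saline and 9.94 to 14.6 CPM in cerulein, and their part in the platelet chains was not tested.

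**Figure D4:**
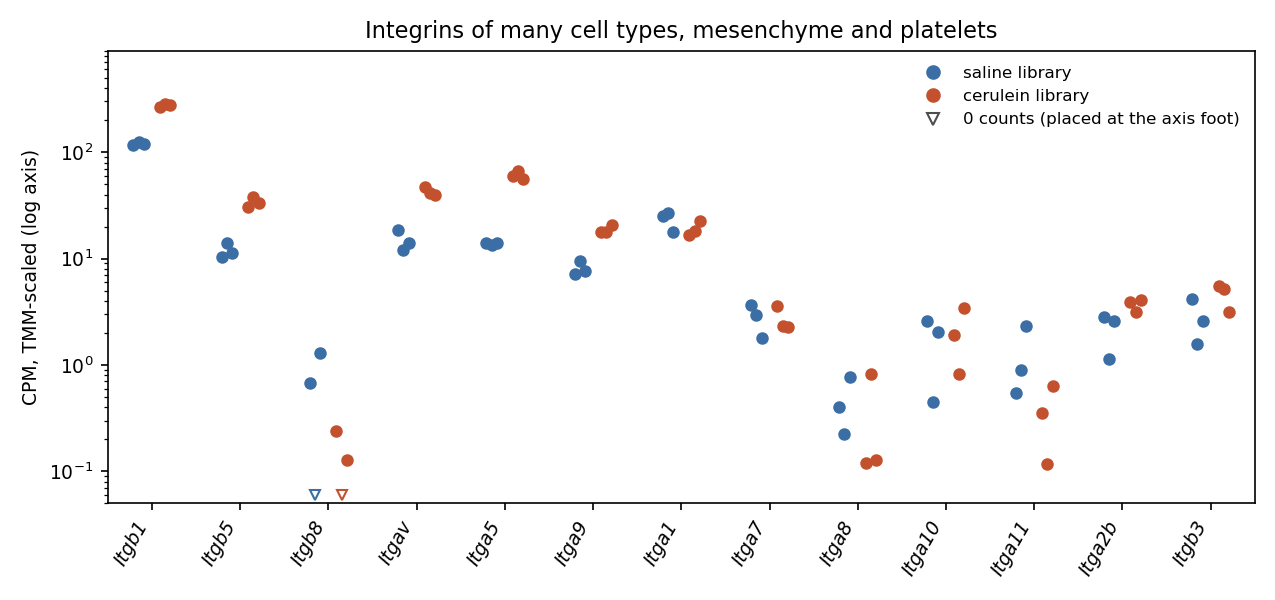
CPM in each library on a log axis for 13 integrins of many cell types, mesenchyme and platelets; open triangles at the foot are libraries with 0 counts. Itgb1, Itgb5, Itgav, Itga5 and Itga9 have groups apart and were called higher, while Itga1, Itga7 and Itga10 overlap.

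Of 10 laminin genes, 8 were tested, 3 rose and 2 fell, and the median log2 fold change was -0.14. These counts are near the shares over all genes, 28.7% higher and 27.1% lower. Lamb3, the beta3 chain of epithelial basement membranes, had 40.2, 23.9 and 39.1 CPM in saline and 74.1, 78.2 and 88.8 CPM in cerulein, a log2 fold change of 1.22 ± 0.19 (SE; edgeR adjusted p = 1.30e-04).

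Lama3, an alpha chain that assembles with beta3, was low in both groups. It had 19, 10 and 5 reads in saline and 8, 5 and 5 reads in cerulein, too few for the filter. Its CPM were 2.57, 2.25 and 1.29 in saline and 0.947, 0.585 and 0.631 in cerulein, with every cerulein library below every saline library. The scaled count ratio was 0.334, with an exact 95% interval of 0.178 to 0.608 that covers counting error only. Without a count filter the log2 fold change was -1.45 ± 0.60 (SE, adjusted p = 0.0416, edgeR). Of its exon length, 4.85% lies under another gene of the table. Per kilobase of exon, Lama3 stood at 0.190 ± 0.062 and Lamb3 at 6.71 ± 1.78 CPM per kb in saline. In cerulein they stood at 0.0671 ± 0.0183 and 15.7 ± 1.48 CPM per kb (mean ± SD, n = 3). Lama3 was below Lamb3 in every library.

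Lamc1, the gamma1 chain shared by most laminins, stood at 51.2, 48.4 and 48.1 CPM in saline and 215, 215 and 200.4 CPM in cerulein, a log2 fold change of 2.09 ± 0.15 (SE; edgeR adjusted p = 1.85e-07). The beta chains it assembles with, Lamb1 and Lamb2, had log2 fold changes of -0.13 ± 0.19 and -0.16 ± 0.20, with groups that overlapped. Lama5, the main alpha chain of adult epithelial and vascular basement membranes, had 48.4, 22.8 and 31.1 CPM in saline and 71.3, 56.3 and 76.3 CPM in cerulein (0.98 ± 0.24, adjusted p = 0.00537). Lama4, of vessels, fat and muscle, had -0.38 ± 0.27 and did not pass.

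The chains that fell were Lama2 and Lamc3. Lama2, the alpha2 chain of muscle, nerve and mesenchymal basement membranes, went from 14.5, 12.6 and 19.3 to 4.50, 4.68 and 3.79 CPM (log2 fold change -1.83 ± 0.24 SE, edgeR adjusted p = 3.55e-05). Lamc3, the gamma3 chain, went from 7.72, 3.15 and 6.69 to 1.42, 1.29 and 1.26 CPM (log2 fold change -2.15 ± 0.41 SE, edgeR adjusted p = 5.73e-04). In both the groups were apart. Of 7 fibroblast and stellate cell markers, none at 0, 2 rose and 1 fell, where 28.7% of all genes rose and 27.1% fell. These markers summed to 384 to 438 CPM in saline and 343 to 464 CPM in cerulein. Their part in the falls of Lama2 and Lamc3 was not tested. Lama1, the alpha1 chain of embryonic basement membranes, had 0 reads in all 6 libraries, which allows up to 3 counts a library, or 0.351 to 0.771 CPM, for counting error only. It lies at chromosome 17, 67697259 to 67822647 (GRCm38), under no other gene of the table.

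**Figure D5:**
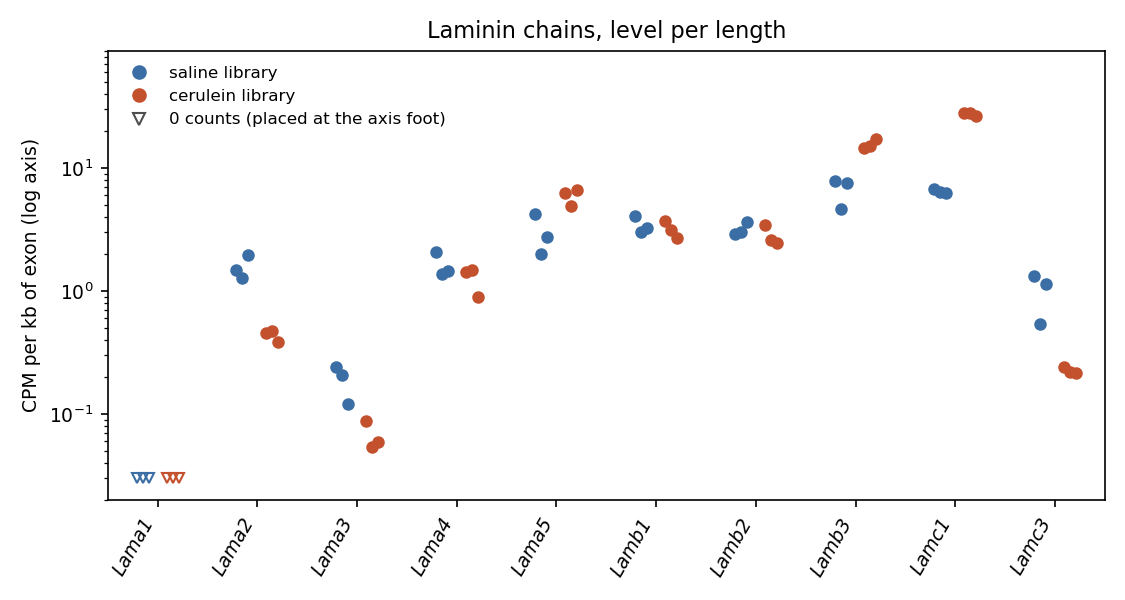
CPM per kilobase of exon in each library on a log axis for 10 laminin chains; open triangles at the foot are libraries with 0 counts. Lamc1 goes from 6.46 to 27.6 CPM per kb on average while Lama3 goes from 0.190 to 0.0671, and Lama2 and Lamc3 are lower in all cerulein libraries.

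Ordered by CPM per kb of exon, Itgb1 (31.6 ± 0.83) and Itga6 (25.3 ± 3.74) led in saline, followed by Itgb4 (8.06 ± 1.43), Lamb3 (6.71 ± 1.78) and Lamc1 (6.46 ± 0.22). Lamb3 overlapped with Itgb4 and with Lamc1 across libraries. In cerulein the order was Itgb1 (72.5 ± 2.11), Itga6 (45.7 ± 7.48), Itgb4 (34.4 ± 1.13), Lamc1 (27.6 ± 1.12) and Itga3 (20.2 ± 1.30). Itgb4, Lamc1 and Itga3 did not overlap with one another in cerulein. Which features the authors counted is not given, so lengths and this order are approximate.

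Other genes of the pathway were counted from lists. Of 28 tested integrin activators and adaptors (30 listed), 14 rose and 4 fell, with a median log2 fold change of 0.49, where 28.7% of all genes rose and 27.1% fell. Zyx, encoding zyxin of focal adhesions, went from 48.7 ± 6.68 to 813 ± 53.7 CPM (4.06 ± 0.20 on the log2 scale), and the kinase gene Src and vinculin gene Vcl rose by 2.56 ± 0.22 and 2.32 ± 0.18. Tln2, a talin that activates integrins, fell by 2.24 ± 0.22, from 21.0 ± 2.26 to 4.43 ± 0.82 CPM. The more abundant talin gene, Tln1, rose by 1.39 ± 0.21, from 58.2 ± 18.0 to 154 ± 21.1 CPM. Of 7 hemidesmosome and other laminin receptor genes, 5 were tested, 2 rose and 1 fell. Over all 6 libraries Col17a1 had 1 read and Bcam had 0, and neither was tested. Plec, the plectin that ties beta4 to keratin, went from 70.5 ± 11.3 to 585 ± 40.4 CPM (3.05 ± 0.19), and Dst, encoding the hemidesmosomal plakin dystonin among other forms, rose by 2.02 ± 0.24. The laminin receptor Dag1 fell by 1.52 ± 0.16, and the tetraspanin Cd151, which binds alpha3 and alpha6 integrins, had 0.30 ± 0.17 and did not pass.

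Of 13 basement membrane partners of laminin, 11 were tested, 3 rose and 2 fell, with a median of -0.15, where 28.7% of all genes rose and 27.1% fell. The collagen IV genes Col4a2 and Col4a1 rose by 1.18 ± 0.15 and 1.06 ± 0.16 and Col18a1 by 1.01 ± 0.20, whereas Col4a5 fell by 1.55 ± 0.34. Among 14 other integrin ligands, 13 were tested, 9 rose and 2 fell, with a median of 1.46. E-cadherin (Cdh1), which alphaE binds, rose by 3.57 ± 0.21, the matricellular genes Cyr61 and Thbs1 by 4.03 ± 0.29 and 2.69 ± 0.27, and Tnc, the tenascin that alpha9 binds, by 3.31 ± 0.37 on the log2 scale (mean ± SD for CPM, SE for log2 changes, n = 3, edgeR).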

How the data were processed

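RNA was sequenced from pancreas in 3 saline and 3 cerulein samples. The values are raw counts of reads for each gene, deposited as 1 table of 36333 genes and 6 libraries, and were used unchanged. Per the labels' protocols, RNA was extracted with TRIzol from tissue kept in RNAlater, and libraries were made with a stranded poly(A) kit. Trimmomatic, STAR, HTSeq and mm10 are named in the submitters' processing notes. Settings, strand use and annotation release are not given in the sources available for this work. Reads in overlapping genes may be lost or misassigned.

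Genes were filtered with filterByExpr (minimum count 10, minimum total 15), leaving 12441, and tested with the two-sided quasi-likelihood F test of edgeR 4.0.16 in R 4.3.3 with TMM factors and Benjamini-Hochberg adjustment over all genes, called under 0.05. Standard errors came from the F statistics. The test was checked on simulated data. Alternatives were other scalings, filters, limma 3.58.1, DESeq2 1.42.0, each library left out, and the replicate number as a block. Members and gene lists were chosen with earlier results of these data known. Every gene described is named (1 item is not reported here), plus up to 4 genes of smallest p per pathway list. Exon lengths and positions are from GENCODE M21 (GRCm38, the assembly of mm10) and promoters from RefSeq.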

Additional observations from a re-analysis of the deposited data

How the results depend on the processing

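Of the 16 called genes, 15 kept their direction and call in every alternative that tested them, out of 14 alternatives, and Itga2 was not tested without cerulein replicate 1. Itgax was the exception. Over all genes tested, the median log2 fold change was 0.56 with library size alone (5181 higher, 1449 lower) and -0.20 with upper-quartile factors (2895 higher, 4190 lower), against 3574 higher and 3373 lower with TMM. The number of leukocyte integrins called higher was 0 with upper-quartile factors and with DESeq2, 2 with the replicate block, and 0 to 3 when 1 library was left out. The block also called Itgam (log2 fold change 1.16, edgeR adjusted p = 0.0485). Deviations of same-numbered libraries from their group means correlated at 0.19, 0.22 and -0.15, and those of differently numbered libraries at -0.29 to 0.088. With 3 libraries a group, the deviations are tied to one another, so these values cannot decide whether the numbers pair the samples. The labels do not say that they do. With library size alone the median was 2.68 for epithelial integrins, 1.52 for other integrins and 0.43 for laminin chains. With upper-quartile factors it was 0.76 for other integrins and -0.33 for laminin chains, and without a filter 0.74 for other integrins. The causes were not tested. Some uncalled genes changed sign. With library size alone the log2 fold changes were Lamb2 0.43, Lama4 0.15, Itga7 0.46, Lamb1 0.42 and Itga1 0.28. With upper-quartile factors they were Itga10 -0.012 and Itgal -0.17, while Itga1 was called there at -0.48. Leaving out 1 library gave -0.98 to 0.26 for Itga4, -0.36 to 0.70 for Itga10, -0.34 to 0.77 for Itgal and -0.30 to 0.16 for Itga7. Depth limits what can be said of Itgad, Itgb8, Itga8 and Lama3, each with few reads. For Itgad, 33.1% of the exon length also lies under other genes of the table, so reads may be missing.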
